A study of Mus musculus with 6 samples.

Results

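Genes of the major histocompatibility complex (MHC, named H2 in the mouse) and of antigen presentation were followed in livers of C57BL/6 mice that had received acetaminophen (APAP), a drug whose overdose kills hepatocytes. The members were the rows of the deposited gene table whose symbol begins with H2- and a capital letter, or is B2m, Cd74, Ciita, Tap1, Tap2, Tapbp, Tapbpl, Nlrc5, Erap1 or Cd1d1. There were 45 such rows among 28476. The 2 groups were 3 liver libraries of Nedd4 HepKO mice and 3 of Flox mice, both fasted, given 300 mg/kg APAP into the peritoneum and sampled 24 h later. Below, a liver stands for 1 such library. The series title names the ubiquitin ligase NEDD4-1 as a suppressor of this liver injury. The label HepKO reads as a knockout in hepatocytes. The Cre driver, the age and sex of the mice and the number of mice per library are not given in the sources used here. Livers without APAP are not analysed here, so every difference below is between 2 treated genotypes.

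Class I molecules sit on nearly all nucleated cells. Their heavy chain binds beta-2 microglobulin and holds a peptide that was cut by the proteasome, pumped into the endoplasmic reticulum by the TAP transporter, trimmed by aminopeptidases and loaded with the help of tapasin. Class II molecules are made of an alpha and a beta chain, are found mainly on dendritic cells, B cells and macrophages, and present peptides from the endolysosome; the invariant chain CD74 guards their groove until the DM chaperone exchanges its fragment for a peptide. In the liver, Kupffer cells and sinusoidal endothelial cells also present antigen, and hepatocytes carry class I. NLRC5 drives class I genes and CIITA drives class II genes, both through a shared set of promoter boxes that includes the Y box bound by NF-Y.

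By class, 24 members were class I heavy chain rows, of which 6 are not annotated as protein coding, and 10 were class II chains. Another 7 belonged to the class I pathway (B2m, Tap1, Tap2, Tapbp, Tapbpl, Erap1 and Nlrc5) and 2 to the class II pathway (Cd74 and Ciita). Cd1d1 presents lipids, and H2-Ke6 encodes a steroid dehydrogenase (Hsd17b8) that lies in the complex and has no part in presentation. Chromosome 17 held 38 of the 45, in the order K, class II, D, Q, T and M regions.

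The promoters of 8 class I and class II members are shown, each with an exact match of at least 1 of 3 boxes searched. Other boxes of the set shared by the 2 classes were not searched. Each is the 200 bases before the gene start, 5′ to 3′ on the gene's own strand, from RefSeq on GRCm38.p6. Capitals mark the Y box (CTGATTGG, read on either strand), the core of the interferon-stimulated response element (TTTCACTT) and the core of the class I enhancer A (GGGATTCCC); these 3 do not overlap each other in the stretches shown. The first pair in the list are class II genes, the others class I.
H2-Aa, chr17:34287824-34288023, minus strand: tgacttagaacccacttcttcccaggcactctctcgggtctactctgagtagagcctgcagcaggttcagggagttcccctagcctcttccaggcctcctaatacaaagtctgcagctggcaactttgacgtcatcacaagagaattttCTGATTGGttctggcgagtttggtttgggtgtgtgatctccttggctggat
H2-Eb1, chr17:34305667-34305866, plus strand: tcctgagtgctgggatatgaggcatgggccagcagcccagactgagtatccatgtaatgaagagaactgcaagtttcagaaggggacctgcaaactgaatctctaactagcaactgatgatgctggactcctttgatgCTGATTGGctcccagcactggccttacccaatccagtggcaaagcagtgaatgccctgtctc
H2-K1, chr17:34000348-34000547, minus strand: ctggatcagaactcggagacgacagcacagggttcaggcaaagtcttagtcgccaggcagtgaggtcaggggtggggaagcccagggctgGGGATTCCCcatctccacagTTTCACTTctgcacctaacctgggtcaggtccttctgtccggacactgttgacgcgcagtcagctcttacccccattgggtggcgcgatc
H2-D1, chr17:35262894-35263093, plus strand: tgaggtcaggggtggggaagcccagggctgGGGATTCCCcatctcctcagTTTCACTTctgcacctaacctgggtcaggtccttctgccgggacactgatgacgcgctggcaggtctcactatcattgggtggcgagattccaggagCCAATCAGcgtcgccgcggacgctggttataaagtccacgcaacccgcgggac
H2-Q10, chr17:35469889-35470088, plus strand: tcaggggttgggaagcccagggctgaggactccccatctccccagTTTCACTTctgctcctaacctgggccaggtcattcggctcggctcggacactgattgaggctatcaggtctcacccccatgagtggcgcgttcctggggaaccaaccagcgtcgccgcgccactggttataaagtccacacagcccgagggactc
H2-T22, chr17:36042743-36042942, minus strand: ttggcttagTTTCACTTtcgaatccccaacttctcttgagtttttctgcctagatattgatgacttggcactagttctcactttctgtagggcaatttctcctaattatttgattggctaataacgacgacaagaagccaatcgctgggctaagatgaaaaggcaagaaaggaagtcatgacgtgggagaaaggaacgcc
H2-T23, chr17:36032702-36032901, minus strand: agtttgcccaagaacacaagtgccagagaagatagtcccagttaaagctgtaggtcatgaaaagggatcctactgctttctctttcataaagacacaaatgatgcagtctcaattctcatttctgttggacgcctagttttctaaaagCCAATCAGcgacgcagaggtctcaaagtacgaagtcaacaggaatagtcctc
H2-T-ps, chr17:36111677-36111876, minus strand: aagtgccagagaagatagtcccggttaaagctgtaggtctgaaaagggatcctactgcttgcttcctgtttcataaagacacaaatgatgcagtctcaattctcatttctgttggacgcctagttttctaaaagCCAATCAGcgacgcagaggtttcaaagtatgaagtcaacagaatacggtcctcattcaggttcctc
Counted so that -1 is the base just before the start, the Y box began at -51 in H2-Aa and -62 in H2-Eb1, and lay on the opposite strand from -53 in H2-D1, -52 in H2-T23 and -66 in H2-T-ps. The enhancer A core and the interferon core began at -110 and -90 in H2-K1, and at -170 and -150 in H2-D1. The Y box of H2-K1 lay past the gene start used here, outside the stretch shown. H2-Q10 and H2-T22 held the interferon core and no exact match of the other boxes.

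Of the 45 members, 28 had a RefSeq window, 31 windows in all, each 300 bases long (250 before and 50 after the start). The Y box was in 8 of the 15 class I genes and 4 of the 8 class II genes with a window, against 4.10% of all 32851 windows. The interferon core was in 9 of the 15 class I genes and 0 of the 8 class II genes, against 1.60% of all windows, and the enhancer A core was in 4 class I genes (H2-K1, H2-D1, H2-Q6 and H2-Q7) and 0 class II genes, against 0.353%. All 3 were searched on both strands. These are letter matches and not measured binding. The H2-T-ps and H2-T23 windows were 85.9% identical along an alignment, whereas those of H2-T22 and H2-T23 were 47.8% identical. H2-Q10 and H2-D1 were 82.6% identical, and H2-Aa and H2-Eb1 49.3%. H2-Ab1 has no entry in the promoter table.

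The values are FPKM (fragments per kilobase of transcript, scaled by all mapped fragments), so they are corrected for length and library total. The depth is unknown; sums per library ran from 456176 to 496303 FPKM, and 10402 to 10763 genes reached 1 FPKM. Mitochondrial genes took 24.6% of the FPKM in HepKO replicate 1, 17.2% to 18.3% in HepKO replicates 2 and 3, and 16.7% to 18.1% among Flox livers. The targeted gene Nedd4 had 0.618, 0.666 and 0.565 FPKM in HepKO livers, against 2.18, 2.59 and 2.23 FPKM in Flox livers (log2 fold change -1.04, SE 0.10, limma adjusted p = 0.0015). Hepatocyte transcripts were abundant in every library. The 8 hepatocyte markers (Alb and others) summed to 45755 to 50262 FPKM in HepKO and 40178 to 46848 FPKM in Flox livers. The test was limma on log2(FPKM + 1) for every gene averaging 0.5 FPKM or more, a scale that understates the change of low genes. A gene is said to have risen or fallen where its p, adjusted over all 12712 tested genes, was under 0.05.

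The class II chains H2-Ab1 and H2-Aa rose in HepKO livers, by 2.20-fold and 1.99-fold. The falls called were 3: the T region genes H2-T-ps (5.56-fold) and H2-T22 (1.89-fold), and the aminopeptidase gene Erap1 (1.60-fold). The classical heavy chain genes H2-K1 and H2-D1 and beta-2 microglobulin did not pass the test. In all, 30 of the 45 members were tested, and 5 of these (16.7%) were called, against 20.3% of all tested genes, so the share called was near the background. Over the 30, 14 log2 fold changes were positive and 16 negative, with a median of -0.04, against -0.06 over all tested genes. Every HepKO liver lay above every Flox liver for 4 members (17.2% of all tested genes) and below for 5 (25.2%).

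**Figure D1:**
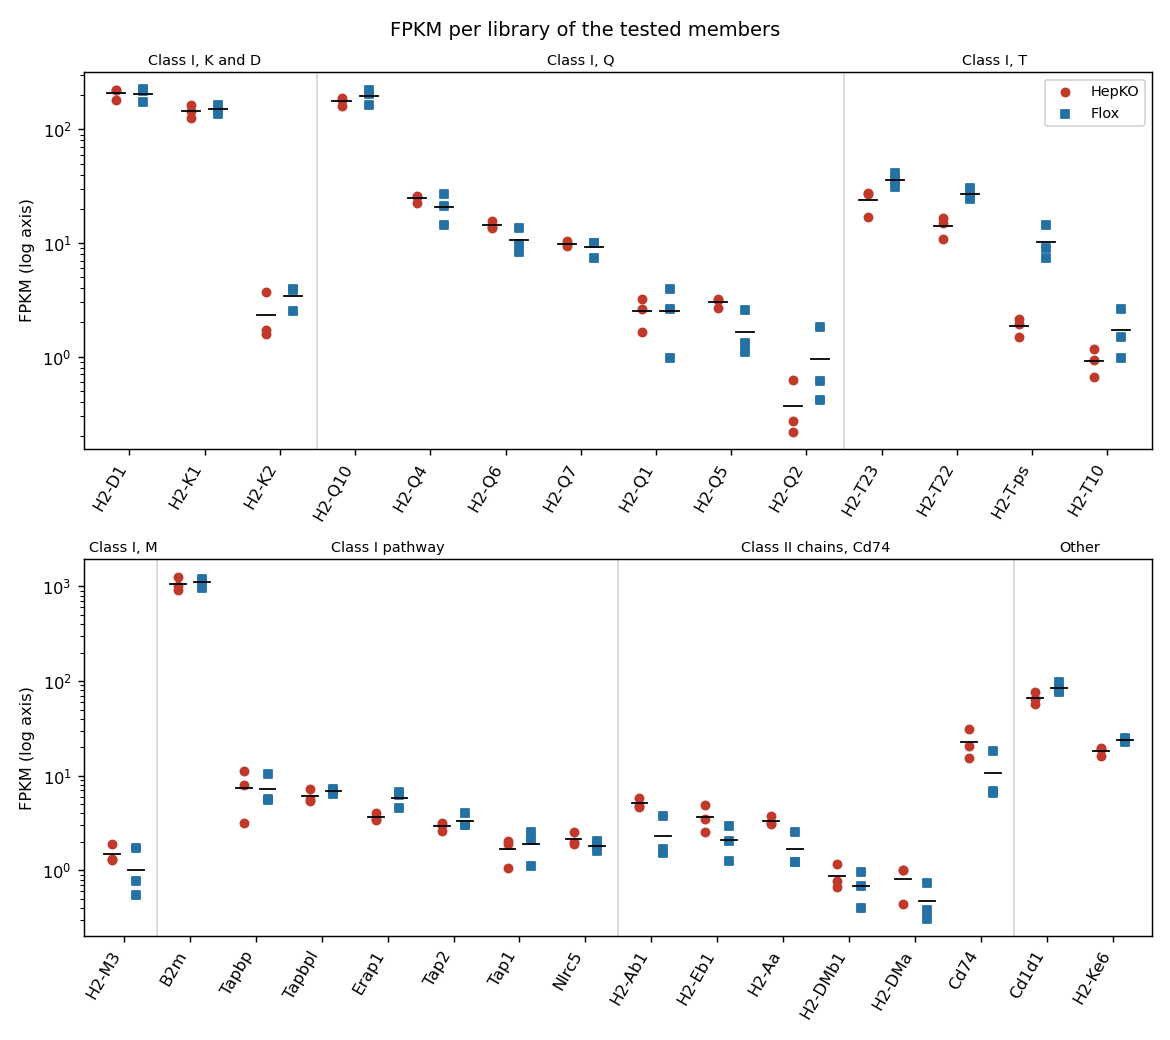
FPKM of the 30 tested members in each liver on a log axis, HepKO points left of Flox points, with group means as bars. H2-D1, H2-K1 and H2-Q10 are among the most abundant and overlap between the groups, H2-T-ps and H2-T22 are lower in every HepKO liver, and Flox replicate 3 is the highest Flox liver for H2-Aa, H2-Ab1 and Cd74.

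The classical heavy chains H2-K and H2-D present peptides to CD8 T cells. H2-D1 (ENSMUSG00000073411, chromosome 17, 35262730 to 35267499 on GRCm38) had 183, 221 and 221 FPKM in HepKO livers, against 219, 173 and 225 FPKM in Flox livers. Its groups overlapped, with means of 208 ± 22.3 FPKM in HepKO and 206 ± 28.2 FPKM in Flox livers (SD, n = 3 each; log2 fold change 0.02, 95% interval -0.32 to 0.36, limma adjusted p = 0.938). H2-K1 (ENSMUSG00000061232, chromosome 17, 33996017 to 34000347) had 144, 125 and 163 FPKM in HepKO livers, against 138, 165 and 147 FPKM in Flox livers (log2 fold change -0.06, 95% interval -0.37 to 0.26, limma adjusted p = 0.789). The sign of H2-K1 turned positive under 2 of the rescalings and that of H2-D1 negative under another. Both intervals contain 0 and leave room for a change of up to about 0.37 on the log2 scale in either direction. B2m, whose product is the light chain of every class I molecule (ENSMUSG00000060802, chromosome 2, 122147686 to 122153083), was the most abundant member, at 1269, 1015 and 918 FPKM in HepKO livers, against 959, 1132 and 1210.0 FPKM in Flox livers (log2 fold change -0.05, 95% interval -0.42 to 0.32, limma adjusted p = 0.851). HepKO replicate 1 had the highest B2m of all 6 livers, the groups overlapped, and the sign turned positive under 2 of the rescalings.

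The Q region encodes non-classical heavy chains, among them H2-Q10, a secreted class I molecule made by hepatocytes, and H2-Q7, a source of the Qa-2 antigen. Of its 7 genes, all tested, 0 rose and 0 fell by limma; 2 were higher at an unadjusted p under 0.05, and 0 had a q under 0.05 in the authors' deposited table. H2-Q10 (ENSMUSG00000067235, chromosome 17, 35470089 to 35474563) had 162, 181 and 187 FPKM in HepKO livers, against 223, 206 and 165 FPKM in Flox livers (log2 fold change -0.16, 95% interval -0.49 to 0.18, limma adjusted p = 0.464). It overlapped between the groups, and its mean FPKM lay between those of H2-K1 and H2-D1 in both. H2-Q4 had 22.7, 25.7 and 25.6 FPKM in HepKO livers, against 21.4, 14.5 and 26.8 FPKM in Flox livers (limma adjusted p = 0.407), and H2-Q7 had 9.78, 10.4 and 9.42 FPKM in HepKO livers, against 10.05, 7.39 and 10.02 FPKM in Flox livers (limma adjusted p = 0.605). Both overlapped.

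The 2 higher genes of the Q region were H2-Q6 and H2-Q5, and neither passed over all genes. H2-Q6 had 13.7, 15.8 and 13.7 FPKM in HepKO livers, against 9.79, 8.38 and 13.5 FPKM in Flox livers (log2 fold change 0.44, SE 0.17, limma adjusted p = 0.123). H2-Q5, annotated as a polymorphic pseudogene, had 3.18, 3.24 and 2.66 FPKM in HepKO livers, against 1.33, 1.09 and 2.58 FPKM in Flox livers (log2 fold change 0.63, SE 0.21, limma adjusted p = 0.0765). Neither gene's groups overlapped, although Flox replicate 3, the highest Flox liver for both, came close to the HepKO livers. Without that liver, the limma adjusted p was 0.0409 for H2-Q6 and 0.0166 for H2-Q5. Reads cannot be split cleanly among these genes: 14.0% of the 100-base stretches of H2-Q5, 11.98% of H2-Q7 and 10.8% of H2-Q6 also occur in another gene's transcripts. The remaining Q genes, H2-Q1 and H2-Q2, stayed under 4 FPKM in every liver and did not pass.

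Both falls among the class I heavy chains lay in the T region. Its products are non-classical: H2-T23 encodes the heavy chain of Qa-1, which is read by CD94 receptors on natural killer cells, and H2-T22 is recognised by some gamma delta T cells. Of the 7 T region rows, 4 were tested. Of these, 2 fell, all 4 had negative log2 fold changes, and their median was -0.75. Over all tested genes, 11% fell, and 25.2% had every HepKO liver below every Flox liver. H2-T-ps, annotated as an unprocessed pseudogene (ENSMUSG00000073405, chromosome 17, 36109234 to 36111658), had 1.48, 1.93 and 2.15 FPKM in HepKO livers, against 9.06, 7.38 and 14.5 FPKM in Flox livers. The groups were far apart, with means of 1.85 ± 0.345 FPKM in HepKO and 10.3 ± 3.72 FPKM in Flox livers (SD, n = 3 each; log2 fold change -1.94, SE 0.23, limma adjusted p = 0.00287). It was the only one of the 30 tested members called without each library in turn, at limma adjusted p values of 0.00605 to 0.0156.

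H2-T22 (ENSMUSG00000056116, chromosome 17, 36037128 to 36042705) had 10.9, 15.0 and 16.7 FPKM in HepKO livers, against 25.8, 24.3 and 30.5 FPKM in Flox livers. Every HepKO liver lay below every Flox liver, with means of 14.2 ± 2.98 FPKM in HepKO and 26.9 ± 3.25 FPKM in Flox livers (SD, n = 3 each; log2 fold change -0.89, SE 0.17, limma adjusted p = 0.0155). Without Flox replicate 3 the limma adjusted p was 0.0541, and without any other single library it stayed under 0.05. H2-T23 (ENSMUSG00000067212, chromosome 17, 36029773 to 36032855) had 16.8, 27.5 and 27.1 FPKM in HepKO livers, against 30.9, 35.8 and 41.7 FPKM in Flox livers, again without overlap. Its promoter is the one that nearly matches that of H2-T-ps in the sequences shown. It was 1.52-fold lower on average and did not pass (log2 fold change -0.60, SE 0.21, limma adjusted p = 0.0917). H2-T10 had 0.660, 1.18 and 0.930 FPKM in HepKO livers, against 0.984, 1.48 and 2.65 FPKM in Flox livers (limma adjusted p = 0.213), and its groups overlapped. H2-T22 shares 8.86% of its 100-base stretches, mostly with H2-T10, and H2-T-ps 5.37%, most of it with H2-Q1 of the Q region, so the split of reads between each gene and that relative is uncertain.

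Below the filter, H2-Bl had 0.238, 0 and 0.0841 FPKM in HepKO livers, against 0.408, 0.350 and 0.859 FPKM in Flox livers, with no overlap. H2-T24 had 0.0446, 0.201 and 0.0529 FPKM in HepKO livers, against 0.277, 0.0986 and 0.758 FPKM in Flox livers. Neither was tested. In all, 15 members fell below the filter, with no value above 0.859 FPKM in any liver, and 1 of them, one of the 2 rows named H2-M10, was at 0 in all 6 livers.

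Of the other class I rows, H2-M3, which presents bacterial peptides that begin with formyl methionine, had 1.90, 1.27 and 1.33 FPKM in HepKO livers, against 0.545, 0.776 and 1.74 FPKM in Flox livers (log2 fold change 0.35, 95% interval -0.20 to 0.89, limma adjusted p = 0.321). H2-K2, a transcribed pseudogene, had 1.70, 3.70 and 1.58 FPKM in HepKO livers, against 3.91, 2.51 and 3.89 FPKM in Flox livers (limma adjusted p = 0.259). Both overlapped between the groups. The other 6 M region rows were below the filter. Over the 24 class I heavy chain rows, 15 were tested: 0 rose, 2 fell and 13 did not pass. Lower calls made up 11% of all tested genes. Without the adjustment 2 were higher and 3 lower at p under 0.05, and the authors' deposited table put 0 higher and 2 lower at q under 0.05. The median log2 fold change was -0.06, turning positive but under 0.01 under 2 of the rescalings, with a range of -1.94 to 0.63. Among the 11 tested protein-coding class I genes, 1 fell (H2-T22) and the median was 0.02.

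**Figure D2:**
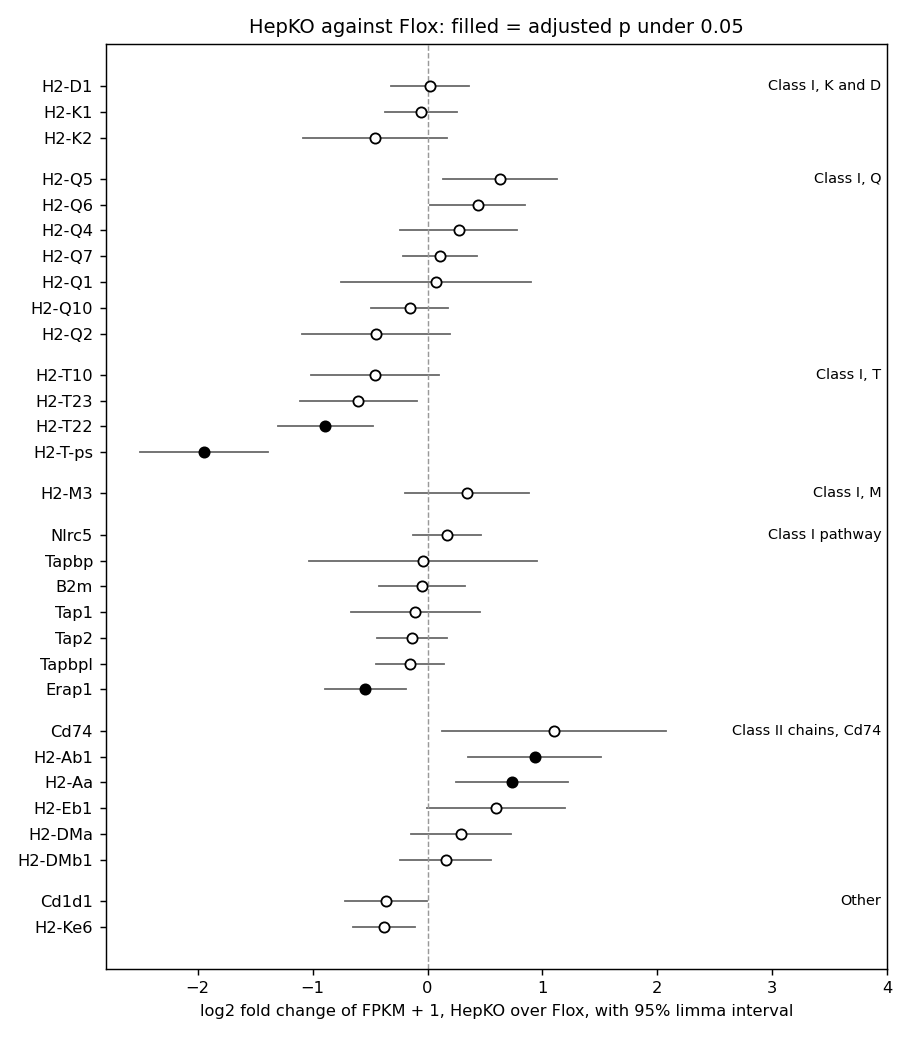
Log2 fold change of HepKO over Flox, with its 95% limma interval, for each of the 30 tested members grouped by class. Filled points passed the adjusted threshold; class I runs from -1.94 (H2-T-ps) to 0.63 (H2-Q5) and all 5 tested class II chains are above 0.

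Among the class II chains, both calls were rises, those of H2-Ab1 and H2-Aa. The 10 rows comprise the presenting A and E chains and the DM and DO chains, which exchange peptides or hold the exchange back. Of these, 5 were tested: 2 rose and 0 fell, all 5 log2 fold changes were positive (0.16 to 0.93), and their median was 0.60, against -0.06 for class I and for all genes. These 5 are the rows that reached the filter, H2-DMa only through the HepKO livers, and 3 of the 5 rows below it had lower means in HepKO livers. Over all 10 rows, with no filter, the median was 0.13. Higher calls made up 9.33% of all tested genes. None was lower at an unadjusted p under 0.05 or at q under 0.05 in the authors' deposited table.

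H2-Ab1, the A beta chain (ENSMUSG00000073421, chromosome 17, 34257689 to 34269419), had 4.70, 5.75 and 4.85 FPKM in HepKO livers, against 1.54, 1.69 and 3.72 FPKM in Flox livers. The groups did not overlap, but Flox replicate 3 had more than the other Flox livers and came within about 1 FPKM of the lowest HepKO liver. Means were 5.10 ± 0.571 FPKM in HepKO and 2.32 ± 1.22 FPKM in Flox livers (SD, n = 3 each; log2 fold change 0.93, SE 0.24, limma adjusted p = 0.0388). H2-Aa, the A alpha chain that pairs with it (ENSMUSG00000036594, chromosome 17, 34282744 to 34287823), had 3.08, 3.79 and 3.16 FPKM in HepKO livers, against 1.22, 1.23 and 2.58 FPKM in Flox livers. The order of the Flox livers was the same, with no overlap between the groups, and the means were 3.34 ± 0.389 FPKM in HepKO and 1.68 ± 0.781 FPKM in Flox livers (SD, n = 3 each; log2 fold change 0.73, SE 0.20, limma adjusted p = 0.0480). The transcripts of both share no 100-base stretch with another gene.

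Both calls depended on single libraries and on the settings. Without that liver, H2-Ab1 had a log2 fold change of 1.22 (limma adjusted p = 0.00717) and H2-Aa one of 0.96 (0.0118). Without HepKO replicate 1, 2 or 3, the limma adjusted p was 0.0857, 0.115 and 0.0759 for H2-Ab1 and 0.0984, 0.137 and 0.0869 for H2-Aa. Without Flox replicate 1 or 2 it was 0.0911 and 0.116 for H2-Ab1 and 0.113 and 0.137 for H2-Aa. Neither gene passed in those 5 fits. With all libraries, both missed the threshold with no filter on low values (limma adjusted p = 0.0945 for H2-Ab1 and 0.112 for H2-Aa) and with the replicate number as a block (0.0665 and 0.0814), and H2-Aa missed it with a pseudocount of 0.1 (0.0522) and with rescaling to a common sum (0.0560).

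H2-Eb1, the E beta chain, whose promoter carries the Y box in the same direction as that of H2-Aa (ENSMUSG00000060586, chromosome 17, 34305867 to 34316674), had 2.57, 4.86 and 3.46 FPKM in HepKO livers, against 1.27, 2.02 and 2.93 FPKM in Flox livers. The groups overlapped, since HepKO replicate 1 lay below Flox replicate 3, and the 1.75-fold higher mean did not pass (log2 fold change 0.60, SE 0.25, limma adjusted p = 0.142). Its partner gene H2-Ea is annotated as a polymorphic pseudogene and was below the filter. The DM chains showed smaller differences. H2-DMa had 0.438, 1.00 and 1.00 FPKM in HepKO livers, against 0.383, 0.309 and 0.739 FPKM in Flox livers (log2 fold change 0.29, limma adjusted p = 0.294), and H2-DMb1 had 0.663, 1.17 and 0.773 FPKM in HepKO livers, against 0.681, 0.402 and 0.958 FPKM in Flox livers (log2 fold change 0.16, limma adjusted p = 0.541). Both overlapped between the groups. H2-DMa also overlaps Brd2 on the opposite strand, and whether the counting used strand is not given. H2-DMb2, H2-Oa, H2-Ob, H2-Eb2 and H2-Ea stayed below the filter.

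Cd74, the invariant chain (ENSMUSG00000024610, chromosome 18, 60803848 to 60812646), had 20.8, 31.1 and 15.5 FPKM in HepKO livers, against 6.92, 6.62 and 18.3 FPKM in Flox livers. Flox replicate 3 had more than HepKO replicate 3, so the groups overlapped. The mean was 2.11-fold higher in HepKO livers, at 22.5 ± 7.93 FPKM in HepKO and 10.6 ± 6.68 FPKM in Flox livers (SD, n = 3 each), and did not pass (log2 fold change 1.10, SE 0.41, limma adjusted p = 0.104). Without Flox replicate 3 the log2 fold change was 1.54 (limma adjusted p = 0.0255). In the authors' deposited table, Cd74 had q = 0.0138, H2-Ab1 q = 0.00577 and H2-Aa q = 0.0129. That table put 6 of the 30 tested members at q under 0.05, against 17.5% of all tested genes: these 3, H2-T22 (q = 0.000594), H2-T-ps (q = 8.33e-09) and Erap1 (q = 0.0403). Ciita, which encodes the class II transactivator, was below the filter, with 0.0137, 0.0655 and 0.0116 FPKM in HepKO livers, against 0.0306, 0.0422 and 0.0698 FPKM in Flox livers.

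**Figure D3:**
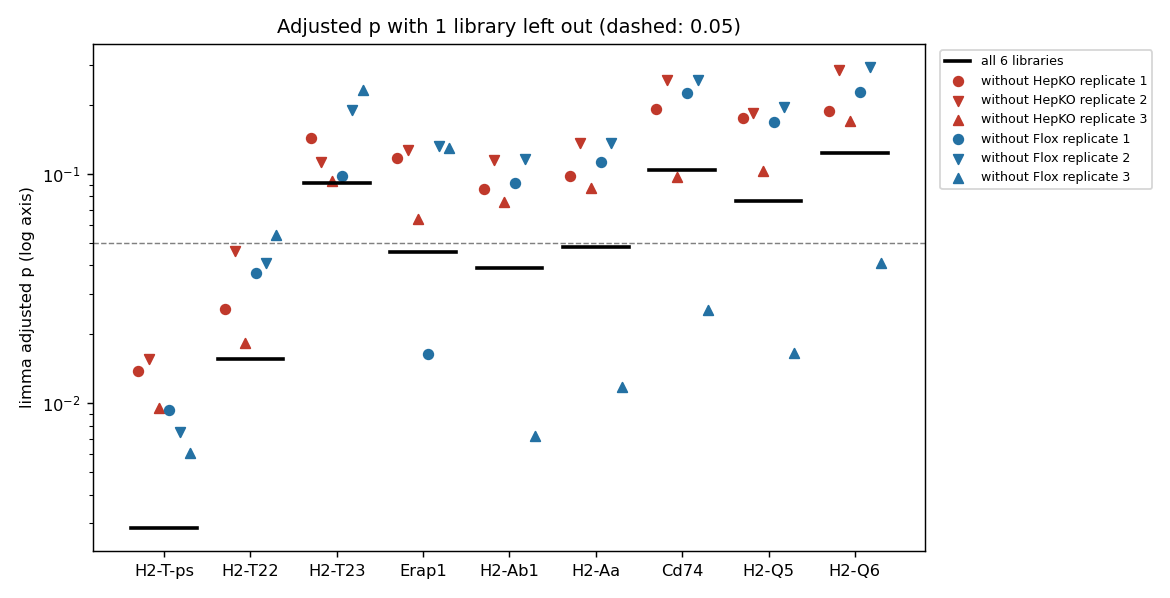
Limma adjusted p of the 5 called members and of H2-T23, Cd74, H2-Q5 and H2-Q6, on a log axis, with all livers (bars) and without each in turn (symbols); the dashed line is 0.05. H2-T-ps stays past the threshold throughout; H2-Ab1, H2-Aa and Cd74 pass without Flox replicate 3 and miss it without each other liver.

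Summed per liver, class I heavy chains were far more abundant than class II chains. The class II chains summed to 11.9, 16.7 and 13.3 FPKM in HepKO livers, against 5.28, 5.77 and 11.1 FPKM in Flox livers, a 1.89-fold higher mean that was not tested. The lowest HepKO liver was close to Flox replicate 3. The class I heavy chains summed to 573, 637 and 677 FPKM in HepKO livers, against 696, 652 and 692 FPKM in Flox livers, with overlap and a ratio of means of 0.925. The difference between the classes was not tested. H2-K1 and H2-D1 together gave 327, 346 and 384 FPKM in HepKO livers, against 357, 338 and 371 FPKM in Flox livers, with overlap. The T region summed to 30.1, 45.8 and 47.0 FPKM in HepKO livers, against 67.4, 69.3 and 91.0 FPKM in Flox livers, with no overlap.

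As a share of the class I sum, the class II sum was 2.08%, 2.62% and 1.97% in HepKO livers, against 0.758%, 0.885% and 1.61% in Flox livers. The T region share of the class I sum was 5.25%, 7.19% and 6.95% in HepKO livers, against 9.68%, 10.6% and 13.1% in Flox livers. Neither share overlapped between the groups. The ratio of class II to class I was higher in each HepKO liver than in each Flox liver.

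**Figure D4:**
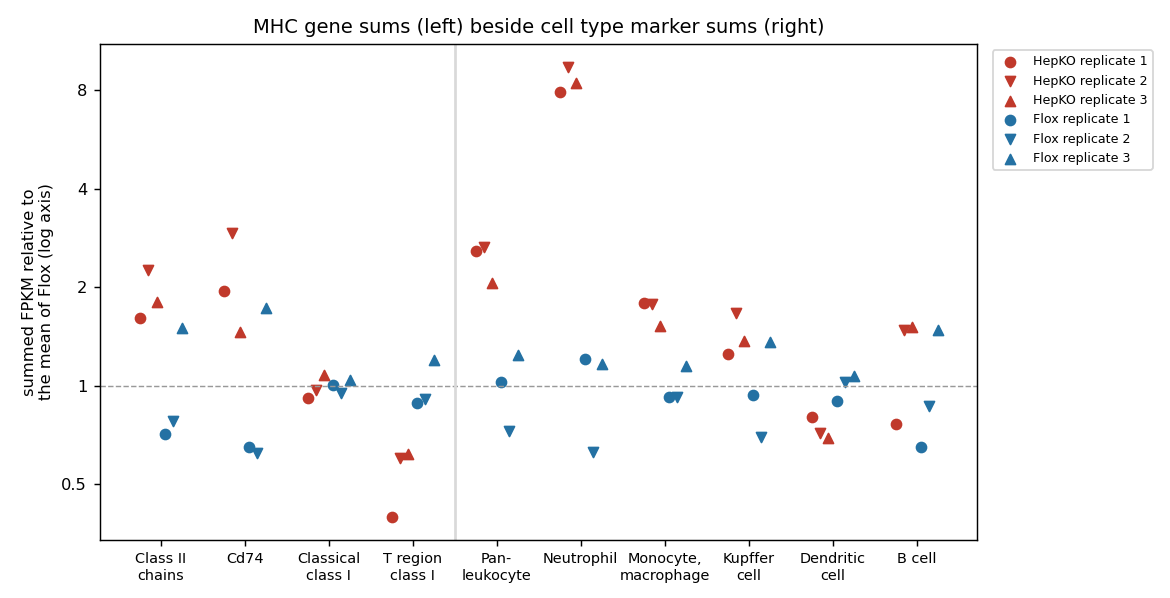
Summed FPKM per liver divided by the Flox mean of that sum, on a log axis, for MHC gene groups and Cd74 (left) and for cell type markers (right), HepKO points left of Flox points and 1 symbol per replicate. Class II sums are 11.9 to 16.7 FPKM in HepKO and 5.28 to 11.1 FPKM in Flox livers, with Flox replicate 3 nearest to HepKO, and neutrophil marker sums are 134 to 160 FPKM in HepKO and 10.6 to 20.5 FPKM in Flox livers.

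Within the class I pathway, 7 members were tested, 0 rose, 1 fell and 6 log2 fold changes were negative, with a median of -0.11. Over all tested genes, 11% fell and the median was -0.06. None was higher at an unadjusted p under 0.05 or at q under 0.05 in the authors' deposited table. Erap1, which trims peptides to class I length (ENSMUSG00000021583, chromosome 13, 74639568 to 74693201), had 3.44, 3.50 and 4.02 FPKM in HepKO livers, against 4.54, 6.22 and 6.74 FPKM in Flox livers. The groups did not overlap, with means of 3.66 ± 0.321 FPKM in HepKO and 5.83 ± 1.15 FPKM in Flox livers (SD, n = 3 each; log2 fold change -0.54, SE 0.15, limma adjusted p = 0.0457). The call was lost without any single library other than Flox replicate 1, at limma adjusted p values of 0.0638 to 0.132. It was also lost with no filter on low values (0.0954) and with the replicate block (0.0581). Erap1 overlaps Cast on the opposite strand.

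The TAP transporter and its helpers did not pass. Tap1 had 1.91, 2.05 and 1.07 FPKM in HepKO livers, against 1.11, 2.08 and 2.53 FPKM in Flox livers (limma adjusted p = 0.782), and Tap2 had 3.19, 2.63 and 3.04 FPKM in HepKO livers, against 3.01, 3.06 and 4.03 FPKM in Flox livers (limma adjusted p = 0.484). Tapbp, which encodes tapasin, had 8.07, 11.1 and 3.20 FPKM in HepKO livers, against 5.64, 5.51 and 10.5 FPKM in Flox livers, and its spread left a wide interval, with a sign that turned positive under 2 of the rescalings (log2 fold change -0.04, 95% interval -1.03 to 0.95, limma adjusted p = 0.964). Tapbpl, a tapasin relative that edits peptides, had 5.48, 7.20 and 5.67 FPKM in HepKO livers, against 6.95, 6.37 and 7.24 FPKM in Flox livers (limma adjusted p = 0.435). All 4 overlapped between the groups, and 0 of the 4 had an unadjusted p or a deposited q under 0.05. Tap1 overlaps Psmb9 on the opposite strand and Tapbp overlaps Zbtb22. Nlrc5, the class I transactivator, had 1.91, 2.57 and 1.99 FPKM in HepKO livers, against 2.03, 1.59 and 1.80 FPKM in Flox livers (log2 fold change 0.17, 95% interval -0.13 to 0.46, limma adjusted p = 0.375). Cd1d1, which presents lipids to natural killer T cells, had 57.3, 64.1 and 77.1 FPKM in HepKO livers, against 97.5, 80.6 and 76.9 FPKM in Flox livers (log2 fold change -0.36, limma adjusted p = 0.137), with overlap. H2-Ke6 had 16.1, 19.6 and 19.3 FPKM in HepKO livers, against 22.7, 25.2 and 24.2 FPKM in Flox livers, without overlap (log2 fold change -0.38, limma adjusted p = 0.0565), and 61.6% of its 100-base stretches also occur in a readthrough transcript.

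The genes around these members gave a mixed picture by step. Beside the counts for these lists, down to the interferon genes, 9.33% of all tested genes rose and 11% fell. Of the 6 immunoproteasome and proteasome activator genes, 0 rose and 1 fell, with a median log2 fold change of -0.36; 0 were higher at an unadjusted p under 0.05. The one that fell, Psmb10, encodes an inducible catalytic subunit and had 3.28, 4.80 and 5.91 FPKM in HepKO livers, against 7.75, 9.04 and 11.8 FPKM in Flox livers (2.04-fold lower; log2 fold change -0.91, SE 0.22, limma adjusted p = 0.0298), a call lost without HepKO replicate 1 or 2 or Flox replicate 2 or 3 (0.0662 to 0.0856). Among 5 endoplasmic reticulum chaperones that serve loading or folding, 1 rose and 1 fell. Hspa5, which encodes the folding chaperone BiP, had 527, 599 and 383 FPKM in HepKO livers, against 108, 140.3 and 121 FPKM in Flox livers (4.08-fold higher; log2 fold change 2.00, SE 0.19, limma adjusted p = 0.00141), and Canx, which encodes the chaperone calnexin, had 36.2, 39.9 and 47.6 FPKM in HepKO livers, against 62.4, 62.9 and 64.9 FPKM in Flox livers (1.54-fold lower; log2 fold change -0.62, SE 0.12, limma adjusted p = 0.0159). Canx lost its call without HepKO replicate 2 (0.0641) or Flox replicate 2 (0.0565) or 3 (0.0586), whereas Hspa5 was called without each library.

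Around class II, the 10 genes of the promoter complex (the RFX, NF-Y and ZXD proteins and Creb1) gave 0 calls, a median of -0.14, and 2 lower at an unadjusted p under 0.05; 0 had a deposited q under 0.05. Of 8 endolysosomal processing genes, 2 rose and 1 fell. Lgmn, an asparagine endopeptidase of the lysosome, had 89.9, 79.0 and 76.0 FPKM in HepKO livers, against 33.3, 26.5 and 33.1 FPKM in Flox livers (2.64-fold higher; log2 fold change 1.37, SE 0.13, limma adjusted p = 0.00141) and was called without each library. Ctsl, which encodes cathepsin L, had 174, 205 and 189.7 FPKM in HepKO livers, against 141, 111 and 119.6 FPKM in Flox livers (1.53-fold higher; log2 fold change 0.61, SE 0.13, limma adjusted p = 0.0183), and Ctsd, which encodes cathepsin D, had 141, 171 and 164 FPKM in HepKO livers, against 225, 229.5 and 246 FPKM in Flox livers (1.47-fold lower; log2 fold change -0.56, SE 0.11, limma adjusted p = 0.0163). Neither held throughout: without Flox replicate 2 or 3 the limma adjusted p was 0.0677 and 0.0666 for Ctsl and 0.0572 and 0.0646 for Ctsd, and without HepKO replicate 2 it was 0.0723 for Ctsl. Ctss, which encodes the cathepsin S that cuts CD74 in antigen-presenting cells, had 17.4, 26.0 and 21.96 FPKM in HepKO livers, against 13.6, 7.97 and 16.3 FPKM in Flox livers and did not pass (limma adjusted p = 0.0840).

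Marchf8, a membrane ubiquitin ligase that lowers surface class II, had 4.56, 4.41 and 4.10 FPKM in HepKO livers, against 7.73, 8.78 and 8.18 FPKM in Flox livers (1.89-fold lower; log2 fold change -0.78, SE 0.10, limma adjusted p = 0.00324), with no overlap and a call without each library. It was the 1 tested gene of its list. Of the costimulatory and coinhibitory genes, 3 of the 9 in the table were tested and 2 rose. Cd274, which encodes the inhibitory ligand PD-L1, had 2.25, 2.18 and 1.86 FPKM in HepKO livers, against 0.3997, 0.439 and 0.551 FPKM in Flox livers (4.53-fold higher; log2 fold change 1.08, SE 0.11, limma adjusted p = 0.00151), and was called without each library. Tnfsf9, which encodes the 4-1BB ligand, had 1.05, 1.45 and 0.760 FPKM in HepKO livers, against 0.136, 0.127 and 0.0860 FPKM in Flox livers (9.36-fold higher; log2 fold change 0.89, SE 0.14, limma adjusted p = 0.00758), and it fell below the filter without HepKO replicate 2. Cd274 and Tnfsf9 reached the filter only through the HepKO livers, with Flox means of 0.463 and 0.116 FPKM. Cd80, Cd86 and Cd40 were below the filter.

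Interferon gamma is the chief inducer of both classes and acts through JAK kinases. Of 8 tested genes of its signalling described here, 1 rose and 0 fell by limma, with a median log2 fold change of 0.23; 1 was lower at an unadjusted p under 0.05. Jak2 was 1.46-fold higher (log2 fold change 0.44, SE 0.09, limma adjusted p = 0.0220), a call lost without HepKO replicate 2 (0.0847) or any 1 of the Flox livers (0.05004 to 0.0752). Ifng itself was below the filter.

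**Figure D5:**
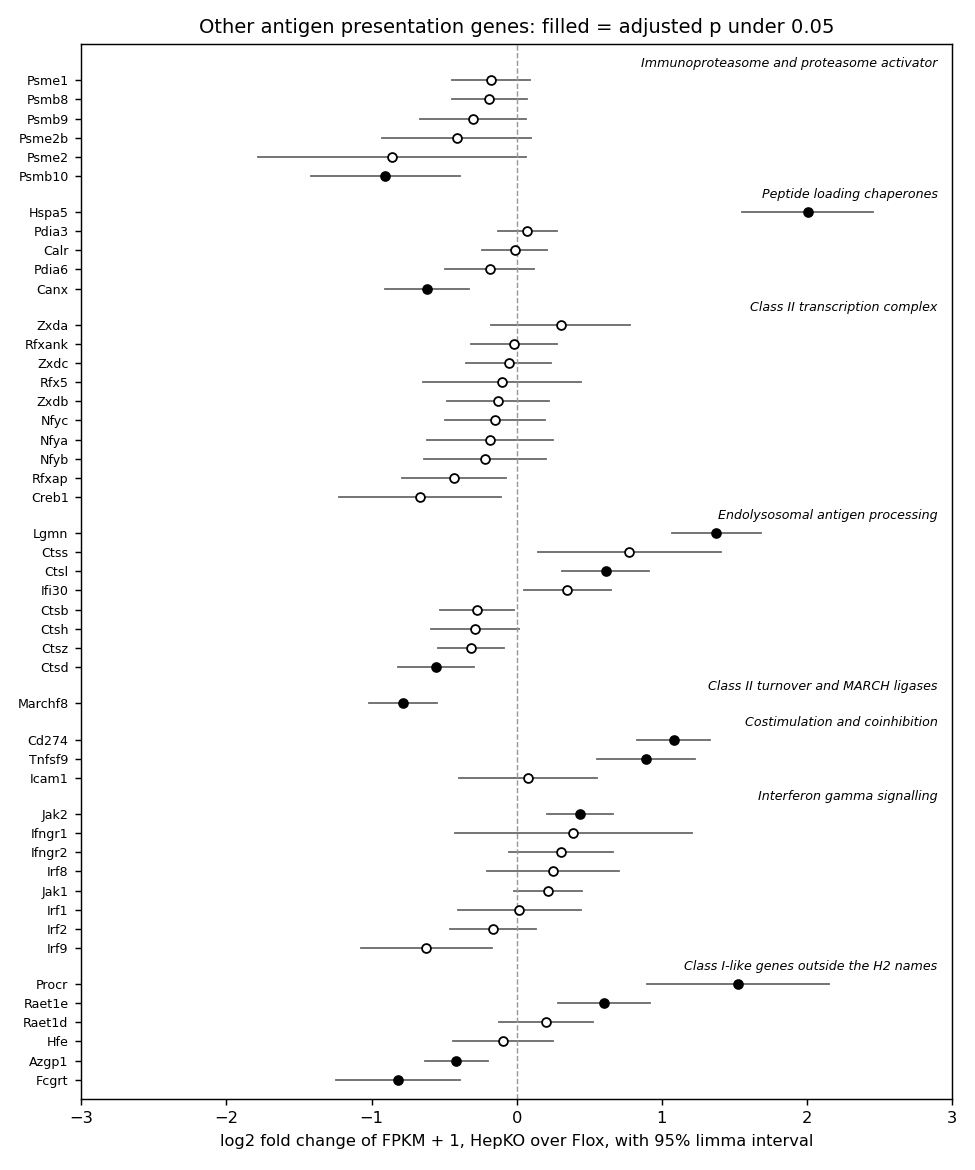
Log2 fold change of HepKO over Flox, with 95% limma intervals and filled points where the adjusted p was under 0.05, for the tested genes of the lists around antigen presentation and of class I-like genes outside the H2 names. Hspa5, Lgmn, Cd274 and Tnfsf9 are among the genes above 0 that passed, and Psmb10 and Marchf8 among those below 0 that passed.

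Pan-leukocyte, neutrophil and some monocyte and macrophage markers rose alongside H2-Ab1 and H2-Aa. Of 10 dendritic cell markers, 2 reached the filter, with 1 lower and 0 higher, too few to describe these cells. B, T and natural killer cell markers were all below the filter. Over all tested genes, 9.33% rose and 11% fell. In bulk liver, more cells of a type and more RNA per cell cannot be told apart. The 5 pan-leukocyte markers summed to 25.8, 26.6 and 20.6 FPKM in HepKO livers, against 10.3, 7.30 and 12.4 FPKM in Flox livers, and 4 of 4 tested rose (3 of these calls remained without each library). The 8 neutrophil markers summed to 134, 160 and 143 FPKM in HepKO livers, against 20.5, 10.6 and 19.7 FPKM in Flox livers, and 8 of 8 rose. Among them, Mmp8, Mmp9, Il1r2 and Cxcr2 reached the filter only through the HepKO livers. Their Flox means were 0.173, 0.182, 0.327 and 0.241 FPKM, so their part in this count is no separate support. Flox replicate 3, the Flox liver with most class II, had the highest pan-leukocyte sum of its group.

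Among cell types that carry class II, monocyte and macrophage markers summed to 143, 141 and 122 FPKM in HepKO livers, against 73.4, 73.6 and 91.8 FPKM in Flox livers, with 4 higher and 1 lower of 9 tested; 3 of the higher calls (Itgam, Cd14 and Lyz2) remained without each library, and the lower one (Gpnmb) only without Flox replicate 1. Kupffer cell markers summed to 69.6, 92.7 and 75.9 FPKM in HepKO livers, against 52.1, 38.8 and 75.5 FPKM in Flox livers, with 1 of 8 (Marco) higher and none lower. The higher mean of this sum rested on Marco, with means of 39.8 FPKM in HepKO and 12.96 FPKM in Flox livers. Of the others, Clec4f, Timd4, Adgre1 and Cd5l had lower means in HepKO livers, and Clec1b, Folr2 and Vsig4 higher ones. The sum therefore does not describe the Kupffer cell markers as a set. For the monocyte and macrophage sum and the Kupffer cell sum, Flox replicate 3 was the highest Flox liver, as for H2-Ab1, H2-Aa and Cd74. This was not particular to them. The same held for the pan-leukocyte, dendritic, B cell, T and natural killer cell and sinusoidal endothelial sums. It also held for the T region sum, which was lower in HepKO livers, and not for the neutrophil sum. Dendritic cell markers summed to 2.44, 2.18 and 2.11 FPKM in HepKO livers, against 2.75, 3.12 and 3.28 FPKM in Flox livers, with 2 of 10 tested and 1 (Clec9a) lower. Clec9a alone had 0.433, 0.715 and 0.399 FPKM in HepKO livers, against 1.44, 1.29 and 1.85 FPKM in Flox livers. The other tested marker, Batf3, had a 1.69-fold higher mean in HepKO livers and did not pass (limma adjusted p = 0.291). Batf3 reached the filter only through the HepKO livers (Flox mean 0.387 FPKM).

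B cell markers summed to 0.402, 0.780 and 0.797 FPKM in HepKO livers, against 0.342, 0.456 and 0.781 FPKM in Flox livers; 0 of 7 reached the filter, and Ms4a1 was at 0 in all 6 livers. T and natural killer cell markers summed to 0.709, 0.601 and 0.893 FPKM in HepKO livers, against 0.520, 0.682 and 1.96 FPKM in Flox livers, with 0 of 12 tested. Sinusoidal endothelial markers summed to 41.7, 46.6 and 35.0 FPKM in HepKO livers, against 38.1, 31.5 and 39.7 FPKM in Flox livers, with overlap, and gave 3 higher (Lyve1, Pecam1 and Stab1) and 1 lower (Kdr) of 8 tested. Of the 3 higher calls, Lyve1 alone remained without HepKO replicate 1 or 2 or any 1 of the Flox livers. The lower call, Kdr, remained without each library (limma adjusted p at most 0.0171). At an unadjusted p under 0.05, 3 of these markers were higher and 3 lower. The part of these cells in the class II difference was not tested.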

How the data were processed

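RNA was measured in 6 mouse liver libraries. Poly(A) RNA was selected, copied with a dUTP-marked second strand and sequenced as read pairs, per the labels' protocols. The authors deposited 1 table of FPKM per gene and library, with their own p-values and q-values, per the file headers; no source used here names the tool behind those. The submitters' processing notes list, without roles, DESeq2, edgeR, HISAT2 2.0.4, StringTie 1.3.4d and cutadapt 1.9. The genome build is not given; 24678 of 28476 genes, and 38 of the 45 members, have the same coordinates in GENCODE M21, so positions are given as GRCm38.

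Count tests do not apply to FPKM, and no interval for counting error can be given. Genes averaging 0.5 FPKM or more were tested with limma 3.58.1 (R 4.3.3; variance trend, two-sided) on log2(FPKM + 1), in a model of genotype alone, and adjusted by Benjamini-Hochberg over 12712 genes. Folds are ratios of group mean FPKM, as HepKO over Flox, or the inverse where a gene is said to be lower. Since no label ties a library to a single animal, the p-values cover only the spread among these libraries, which may be technical. Shared sequence was checked as identical 100-base stretches in GENCODE transcripts. Summaries used Python 3.11.15, pandas 2.3.3 and matplotlib 3.10.9.

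The members, gene lists and markers were chosen with earlier results of these data known. Values per library are given for the main heavy chain, class II and pathway members and any other member past the threshold; in the lists, genes past the threshold were named with the most abundant or defining ones, and any others were chosen after their values were seen. Alternatives were other pseudocounts, filters, rescalings, the omission of each library and a replicate block. One gene of the interferon gamma list is not reported here.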

Additional observations from a re-analysis of the deposited data

How the results depend on the processing

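The counts of calls depended on single libraries. When each library was left out in turn, 669 to 1035 of all genes were higher and 612 to 1303 lower, 0 to 5 members were higher and 1 to 3 lower, 0 to 2 class I heavy chains were higher and 1 to 2 lower, and 0 to 2 class II chains were higher and 0 lower. The 5 higher members (H2-Ab1, H2-Aa, Cd74, H2-Q5 and H2-Q6) came without Flox replicate 3, and the count was 0 without each other library. The median log2 fold change stayed at -0.15 to 0.01 for class I and 0.40 to 0.79 for class II, and that of Nedd4 at -1.07 to -0.99. With a pseudocount of 0.1, 1 member and 1 class II chain were higher, and the same numbers, 1 and 1, came with rescaling to a common sum. With no filter on low values, 899 of all genes were lower, 0 members and 0 class II chains were higher, and the class II median over all 10 rows was 0.13. With the class I list kept to protein-coding genes, an alternative added after seeing the data, 1 fell. Replicate numbers did not pair the livers (correlations of same-numbered deviations 0.0029, 0.0021 and -0.025); with the replicate block, 776 of all genes were higher and 775 lower, and 0 members and 0 class II chains were higher. Under the 9 settings that kept all libraries, 258 of 267 member values kept their side of the threshold, 9 lost a call and 0 called values changed sign. Of values not called, 7 changed sign, those of B2m, H2-K1 and Tapbp (2 each) and H2-D1 (1), all under rescalings and near 0; the class I median turned positive, under 0.01, under 2 rescalings. The rescalings moved the median of all genes by at most 0.04 on the log2 scale. The cause of these shifts was not tested. Depth is unknown, so low members such as Ciita, the DO chains and most M region genes cannot be compared.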

Other observations

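Class I-like genes outside the H2 names split between the directions. Of 11 in the table, 6 were tested. Of these, 2 rose and 2 fell, with a median log2 fold change of 0.05, where 9.33% of all tested genes rose and 11% fell. Procr, which encodes the endothelial protein C receptor, had 21.5, 19.0 and 12.5 FPKM in HepKO livers, against 6.74, 3.58 and 6.21 FPKM in Flox livers (3.20-fold higher; log2 fold change 1.52, SE 0.26, limma adjusted p = 0.0102), with no overlap and a call without each library. Raet1e, a ligand of the activating receptor NKG2D, was 1.90-fold higher (log2 fold change 0.60, SE 0.13, limma adjusted p = 0.0240), a call lost without any single library other than HepKO replicate 1 or Flox replicate 1 (0.0591 to 0.0808). Fcgrt, the heavy chain of the neonatal Fc receptor, had 22.9, 27.4 and 32.6 FPKM in HepKO livers, against 48.8, 40.7 and 58.9 FPKM in Flox livers (1.79-fold lower; log2 fold change -0.82, SE 0.18, limma adjusted p = 0.0233). Azgp1, a secreted class I-like protein of the liver, had 543, 539 and 556 FPKM in HepKO livers, against 689, 752 and 747 FPKM in Flox livers (1.34-fold lower; log2 fold change -0.42, SE 0.09, limma adjusted p = 0.0229). Neither overlapped between the groups. Fcgrt lost its call without HepKO replicate 1 or 2 or Flox replicate 1 or 3 (0.0550 to 0.0736), and Azgp1 without HepKO replicate 2 or Flox replicate 2 or 3 (0.0860 to 0.0901).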
